A study of Mus musculus with 9 samples.

Results

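The genes described here are the major histocompatibility complex (MHC) genes of the mouse, named H2-, and 11 named genes of antigen processing and presentation, in livers of control, hypothyroid and T3-treated mice. They were taken by name, as every gene in the count tables whose name starts with H2-, plus B2m, Tap1, Tap2, Tapbp, Cd74, Ciita, Nlrc5, Erap1, Psmb8, Psmb9 and Psmb10. This gave 38 genes among the 17154 listed for all libraries, 27 of them with H2- names. Of the 38, 27 belong to the class I pathway (18 class I chain genes and pseudogenes and 9 loading or processing genes) and 10 to the class II pathway (8 chain genes, Cd74 and Ciita). H2-Ke6 belongs to neither, and H2-M2, a class I chain gene, was listed for MMI and MMI+T3 libraries only. Livers came from male C57BL/6 mice, with 3 RNA-seq libraries in each of 3 groups. CT mice were untreated and about 8 to 12 weeks old. MMI mice drank water with 0.1% methimazole, which blocks thyroid hormone synthesis, for 20 days, together with perchlorate, which blocks iodide uptake. The MMI+T3 group had the same methimazole treatment followed by T3 (triiodothyronine, the hormone form that binds the nuclear receptor), given on 5 days, with livers taken 24 hours after the final dose. Methimazole is thus shared by MMI and MMI+T3. Whether it went on during the T3 days is not given in the sources used here. Whole liver holds hepatocytes together with many other cell types.

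MHC class I molecules are made by nearly all nucleated cells and show peptides from inside the cell to CD8 T cells and natural killer cells. Peptides are cut by the proteasome, carried into the endoplasmic reticulum by the Tap1-Tap2 transporter, trimmed by Erap1 and loaded with the help of tapasin (Tapbp) onto a heavy chain paired with B2m. Class II molecules are made mainly by dendritic cells, B cells and activated macrophages, and show peptides taken up from outside to CD4 T cells. Their chains are guided by the invariant chain Cd74 and switched on by the transactivator Ciita, whose counterpart for class I genes is Nlrc5.

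Library totals ranged from 17256776 to 22599227 counts. MMI replicate 3 had the lowest total and stood apart from the other libraries, with 4.991% of its counts from mitochondrial genes compared to 3.291% to 3.76% elsewhere. Main results that rest on it are therefore given also without it, or with their range over alternative fits. Those fits, which include leaving out each library, are listed with the processing. CT libraries were deposited in a table of their own, so group and table coincide in every comparison with CT and cannot be told apart. Dio1, the deiodinase gene used here to check the labels, had log2 fold changes of -3.96 in MMI compared to CT and 7.82 in MMI+T3 compared to MMI. The labelled tissue carried its markers in every library: 10 hepatocyte genes summed to between 43376 and 45830 CPM in CT (CPM, the normalised read count relative to the scaled library total). Their sum was lower in MMI, at 34974 to 37944 CPM, and lowest after T3, at 27053 to 28584 CPM. The albumin gene, Alb, accounted for most of the drop after T3, from a mean of 20197 CPM to 12158 CPM (24353 CPM in CT). Of the 10 genes, 5 had a positive and 5 a negative log2 fold change in MMI+T3 compared to MMI, with a median of -0.12.

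The abundant class I genes stood far above the class II genes. Levels were divided by the joined length of all annotated exons of a gene. This can exceed the longest coding transcript, as for H2-Aa (3.798 kb and 1128 bases) and H2-Q10 (4.348 kb and 1991 bases). The order of genes with similar values therefore depends on this choice of length. By it, B2m had 1380 ± 112 CPM per kb in CT (mean ± SD, n = 3), H2-Q10 590.4 ± 58.7 and H2-K1 534.2 ± 16.2 CPM per kb. H2-Q10, which encodes a secreted class I molecule made in liver, and H2-K1, a classical chain, overlapped in CT by this length, with 523.1 to 630.3 and 516.3 to 547.9 CPM per kb. The other classical chain, H2-D1, was lower at 273.9 ± 11.2 CPM per kb, followed by H2-T23 at 108.5 ± 6.3 CPM per kb. Among class II genes, Cd74 had 19.3 ± 3.4 CPM per kb in CT, H2-Eb1 6.98 ± 1.30, H2-Ab1 6.05 ± 1.14 and H2-Aa 4.07 ± 0.97 CPM per kb. By this length the range of H2-Ab1 overlapped those of H2-Eb1 and H2-Aa, while H2-Aa lay below H2-Eb1. Of all counts on class I chain genes, H2-Q10 took 42.2% to 48.5%, H2-K1 26.0% to 29.6% and H2-D1 12.2% to 16.0% over the 9 libraries.

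**Figure D1:**
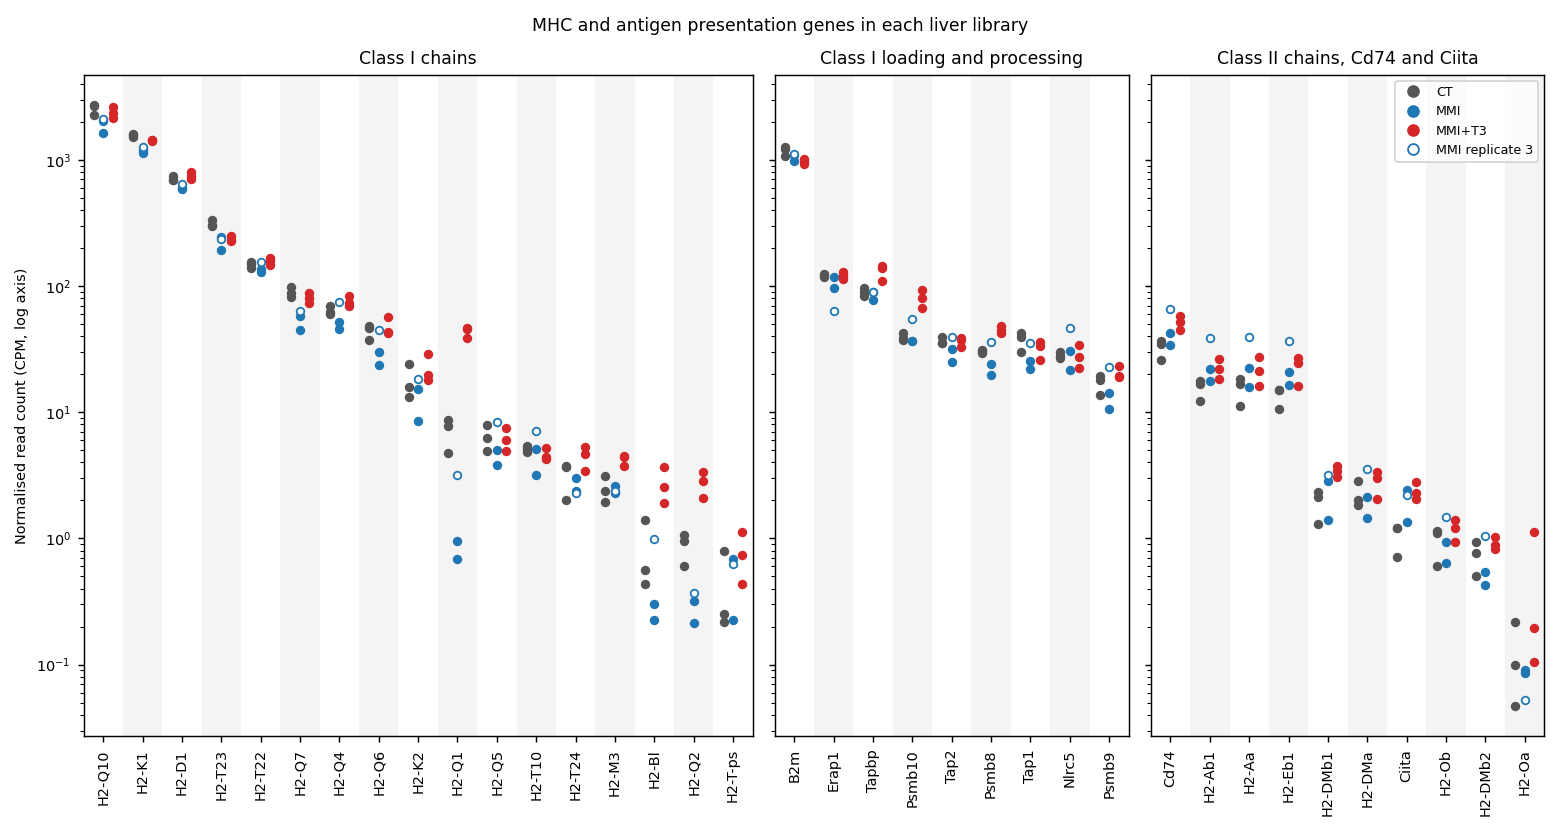
Normalised read count (CPM, log axis) of the class I chains, the class I loading and processing genes and the class II pathway genes, 1 point per library, with CT, MMI and MMI+T3 side by side and MMI replicate 3 as an open circle. H2-Q1 lies between 39.0 and 46.6 CPM in MMI+T3 and between 0.69 and 3.2 CPM in MMI, and H2-Aa, H2-Ab1 and H2-Eb1 are highest in MMI replicate 3. Genes with a library at 0 and H2-Ke6 are not drawn.

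Which of these genes responded to T3 was asked by comparing MMI+T3 to MMI livers. Some class I pathway genes were called higher, and no class II pathway gene was called. With edgeR's quasi-likelihood test and Benjamini-Hochberg adjustment over all 14109 genes tested (threshold 0.05), 8 of 26 tested class I pathway genes were higher and 0 lower, while 0 of 9 tested class II pathway genes were called. Over all genes tested, 9.83% were called higher and 7.18% lower, so 0 calls among 9 genes does not set class II apart. The median log2 fold change was 0.36 over the class I pathway and 0.22 over the class II pathway, beside -0.02 over all genes. The class II median was not stable: it was -0.02 without MMI replicate 1, 0.02 without MMI replicate 2, 0.08 without MMI+T3 replicate 3, 0.10 without MMI+T3 replicate 1, 0.41 without MMI replicate 3, and -0.03 over the 6 genes with at least 50 counts in at least 3 libraries. An unadjusted edgeR p under 0.05 was found for 11 class I pathway and 0 class II pathway genes, beside 4226 of all 14109 genes tested. DESeq2 and limma-voom also called 8 and 0. Filtering left out H2-M6-ps, H2-Oa and H2-Ke6, each with too few counts.

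H2-Q1, a class I chain gene of the Q region (ENSMUSG00000079507, chromosome 17, 35320405 to 35325099, plus strand, GRCm38), had the largest change of all these genes. It had 39.0, 46.6 and 45.7 CPM in the MMI+T3 libraries, 0.95, 0.69 and 3.2 CPM in MMI and 7.78, 8.61 and 4.75 CPM in CT. The 3 groups did not overlap, with MMI lowest and MMI+T3 highest. All MMI+T3 libraries lay above all MMI libraries in 12 of 26 tested class I pathway genes and 0 of 9 class II pathway genes, beside 19.2% of all genes tested. The MMI values rest on 21, 16 and 61 counts, and those of MMI+T3 on 746, 959 and 940 counts. Compared to MMI, H2-Q1 rose 27.5-fold (log2 fold change 4.78, SE 0.41, edgeR adjusted p = 2.3e-05). Without MMI replicate 3, the highest MMI library, the rise was 52.9-fold (log2 fold change 5.73, edgeR adjusted p = 1.84e-06).

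H2-Q2, the next gene along the chromosome (35342242 to 35346762, plus strand), followed the same order at a lower level. It had 3.35, 2.87 and 2.09 CPM in MMI+T3, 0.318, 0.215 and 0.367 CPM in MMI and 1.07, 0.60 and 0.95 CPM in CT. The MMI values rest on only 7, 5 and 7 counts, and those of MMI+T3 on 64, 59 and 43, so the size of the change is uncertain. Groups did not overlap here either, and H2-Q2 was 9.02-fold higher after T3 (log2 fold change 3.17, SE 0.41, edgeR adjusted p = 0.000383). H2-Bl, a class I gene of the T region annotated as a polymorphic pseudogene, rose from 0.23, 0.30 and 1.00 CPM in MMI to 2.56, 1.90 and 3.65 CPM in MMI+T3 (log2 fold change 2.41, SE 0.54, edgeR adjusted p = 0.0111), and had a log2 fold change of 3.32 without MMI replicate 3. Calls for H2-Q1, H2-Q2 and H2-Bl were kept without any one of the 6 libraries.

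H2-Q genes are close copies, so the first 60 coding bases of H2-Q1 and of 4 neighbours are shown to let their differences be seen, from GENCODE M21 transcripts on GRCm38. Capitals mark bases that differ from H2-Q1 at the same position, which number 13 in H2-Q2, H2-Q6 and H2-Q7 and 17 in H2-Q4.
H2-Q1 (chr17:35320562-35320621, plus strand): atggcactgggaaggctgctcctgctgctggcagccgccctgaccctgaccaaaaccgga
H2-Q2 (chr17:35342333-35342392, plus strand): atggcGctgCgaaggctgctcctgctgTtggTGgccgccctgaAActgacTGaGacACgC
H2-Q4 (chr17:35379644-35379703, plus strand): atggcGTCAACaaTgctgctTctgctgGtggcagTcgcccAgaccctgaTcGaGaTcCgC
H2-Q6 (chr17:35424877-35424936, plus strand): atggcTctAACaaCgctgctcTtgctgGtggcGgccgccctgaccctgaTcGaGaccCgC
H2-Q7 (chr17:35439221-35439280, plus strand): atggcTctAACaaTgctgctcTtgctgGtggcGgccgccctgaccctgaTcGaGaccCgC

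Over whole coding sequences H2-Q1 was 84.2% identical to H2-Q2 (1107 and 1083 bases) and 77.6% to H2-Q7, while H2-Q6 and H2-Q7 were 95.01% identical. Of the distinct windows of 100 bases in all H2-Q1 transcripts, 8.05% also occurred in a transcript of another gene, most often H2-Q2 with 3.39%. For H2-Q2 this share was 5.09%, all of it in H2-Q1. It was 14.0% for H2-Q5, 12.0% for H2-Q7, 11.3% and 10.3% for H2-DMb1 and H2-DMb2, 10.8% for H2-Q6, 8.86% for H2-T22, 8.01% for H2-Q10 and 7.06% for H2-T10, whereas H2-K1 had 0.957% and H2-Bl 0.185%. The counting of reads with several matches was not given in the sources used here, so the levels of all genes with shared windows are uncertain, and with them the part of the low H2-Q2 counts that came from the more abundant H2-Q1.

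The change was not shared evenly along the Q region. In chromosome order, the log2 fold changes after T3 were 4.78 for H2-Q1, 3.17 for H2-Q2, 0.37 for H2-Q4, 0.09 for H2-Q5, 0.50 for H2-Q6, 0.52 for H2-Q7 and 0.28 for H2-Q10, of which only H2-Q1, H2-Q2 and H2-Q7 passed the test. H2-D1, which lies 52.9 kb before H2-Q1, had 0.28 (edgeR adjusted p = 0.204). Of the 17 tested genes within 200 kb of H2-Q1 that are not H2 genes, 3 were called higher and 0 lower. Named after their values were seen, these were Tcf19 (1.25), Aif1 (1.11) and Apom (0.95, log2 fold changes), which lie 144.3 kb or more away.

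**Figure D2:**
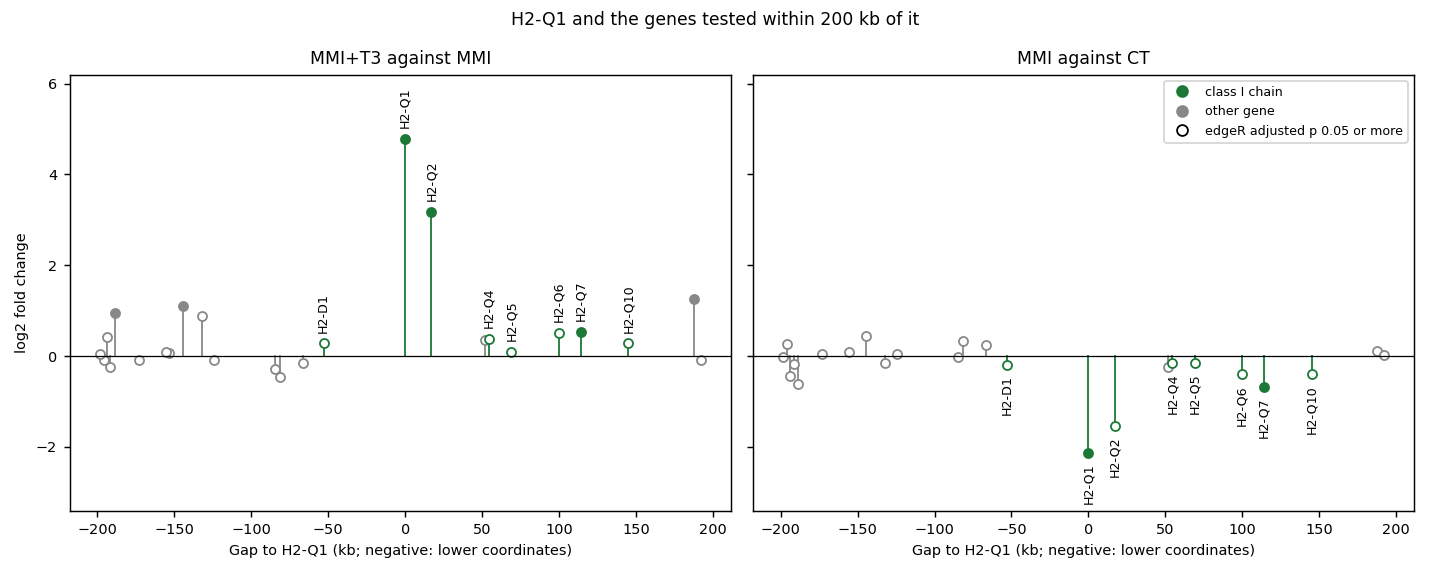
log2 fold change of H2-Q1 and of every gene tested within 200 kb of it against the gap between the genes in kb, for MMI+T3 compared to MMI on the left and MMI compared to CT on the right. Filled points passed an edgeR adjusted p of 0.05. H2-Q1 and H2-Q2 stand at 4.78 and 3.17 on the left and at -2.13 and -1.53 on the right, where H2-Q2 did not pass the test.

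H2-Q7, which encodes a Qa-2 antigen, had 73.9, 79.8 and 88.6 CPM in MMI+T3 and 44.6, 58.2 and 63.5 CPM in MMI (log2 fold change 0.52, SE 0.16, edgeR adjusted p = 0.0432). H2-M3, which presents peptides that start with formylmethionine, had 3.76, 4.42 and 4.52 CPM in MMI+T3 and 2.59, 2.28 and 2.36 CPM in MMI (log2 fold change 0.80, SE 0.24, edgeR adjusted p = 0.0465). In both genes all MMI+T3 libraries lay above all MMI libraries. These calls were close to the threshold. The call for H2-M3 was lost without any one of the 6 libraries (adjusted p of 0.0657 to 0.132) and that for H2-Q7 without any library but MMI replicate 3 (0.0667 to 0.149).

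The abundant class I chains moved less. H2-K1 had 1430, 1399 and 1447 CPM in MMI+T3 and 1198, 1139 and 1268 CPM in MMI, and H2-D1 had 807.3, 702.8 and 749.7 CPM compared to 589.6, 597.6 and 649.4 CPM. Groups did not overlap in either gene, but the log2 fold changes of 0.23 for H2-K1 (95% interval -0.05 to 0.50) and 0.28 for H2-D1 (0.01 to 0.55) did not pass the test. H2-Q10 had 2143, 2609 and 2346 CPM in MMI+T3 and 2036, 1621 and 2107 CPM in MMI (log2 fold change 0.28, edgeR adjusted p = 0.298). H2-T23, which encodes the Qa-1 antigen read by natural killer cells, and H2-T22, whose product is recognised by some gamma delta T cells, had log2 fold changes of 0.06 and 0.16. The remaining class I chain genes and pseudogenes above 1 CPM did not pass. Log2 fold changes were positive for H2-T24 (0.78, edgeR adjusted p = 0.0691), H2-K2 (0.65, 0.144), H2-Q6 (0.50, 0.16), H2-Q4 (0.37, 0.212) and H2-Q5 (0.09, 0.873), and negative for H2-T10 (-0.16, 0.756). Over the alternative fits, H2-T10 ranged from -0.41 to 0.14 and H2-Q5 from -0.12 to 0.47. H2-K2 is annotated as a transcribed pseudogene, and H2-Q5 and H2-T10 as polymorphic pseudogenes. Without MMI replicate 3, H2-Q6 and H2-Q4 were called as well, with log2 fold changes of 0.81 and 0.62 (edgeR adjusted p = 0.0119 and 0.00991).

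In antigen processing, 2 of the 3 immunoproteasome genes and tapasin were higher after T3, and the genes of the peptide transporter were not called. Psmb10, the inducible subunit that replaces Psmb7, had 80.0, 67.1 and 93.7 CPM in MMI+T3 and 36.8, 36.4 and 55.2 CPM in MMI (log2 fold change 0.89, SE 0.19, edgeR adjusted p = 0.00947). Psmb8, which replaces Psmb5, had 48.2, 42.3 and 44.7 CPM compared to 24.2, 19.9 and 35.8 CPM (0.74, SE 0.20, edgeR adjusted p = 0.0278). Tapbp had 138.5, 109.8 and 143.0 CPM compared to 77.3, 90.4 and 90.3 CPM (0.58, SE 0.14, edgeR adjusted p = 0.0186). In these 3 genes every MMI+T3 library exceeded every MMI library. Only the call for Psmb10 was kept without any one library. Psmb8 lost its call without MMI+T3 replicate 1 or 3 or MMI replicate 1 or 2 (adjusted p of 0.0606 to 0.0967), and Tapbp without MMI+T3 replicate 1 or 3 or MMI replicate 1 (0.0666 to 0.0834).

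Psmb9, which replaces Psmb6, had 18.9, 19.5 and 23.1 CPM in MMI+T3 and 10.6, 14.2 and 22.8 CPM in MMI, with the highest MMI value in replicate 3 (log2 fold change 0.36, edgeR adjusted p = 0.379). Without that library its log2 fold change was 0.72 (edgeR adjusted p = 0.0223). Log2 fold changes were 0.18 for Tap1 and 0.16 for Tap2 (adjusted p of 0.576 and 0.59), 0.35 for the trimming peptidase Erap1 (0.257), -0.15 for B2m (0.537) and -0.25 for the transactivator Nlrc5 (0.558). That of Nlrc5 ranged from -0.47 to 0.09 over the alternative fits. B2m, the light chain of every class I molecule, had 960.0, 1023 and 924.0 CPM in MMI+T3 and 1094, 972.6 and 1108 CPM in MMI, and the groups overlapped.

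Set against the standard subunit that each one replaces, Psmb10, Psmb8 and, by a narrow margin, Psmb9 were higher after T3 than in MMI. The ratio of Psmb10 to Psmb7 was 0.70, 0.58 and 0.73 in MMI+T3, 0.24, 0.29 and 0.49 in MMI and 0.27, 0.25 and 0.28 in CT. The ratio of Psmb8 to Psmb5 was 0.62, 0.51 and 0.40 in MMI+T3, 0.28, 0.25 and 0.34 in MMI and 0.43, 0.38 and 0.38 in CT. MMI+T3 libraries lay above MMI libraries in both ratios. The ratio of Psmb9 to Psmb6 was 0.15, 0.16 and 0.16 in MMI+T3, 0.07, 0.12 and 0.14 in MMI and 0.11, 0.14 and 0.12 in CT. Here too MMI+T3 libraries lay above MMI libraries, but narrowly, with 0.149 in MMI+T3 replicate 1 and 0.145 in MMI replicate 3. Among 17 genes of the standard proteasome and its activator, 0 were called in this comparison, and the median log2 fold change was -0.12. An unadjusted edgeR p under 0.05 was found for 1 of them, beside 4226 of all 14109 genes tested.

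**Figure D3:**
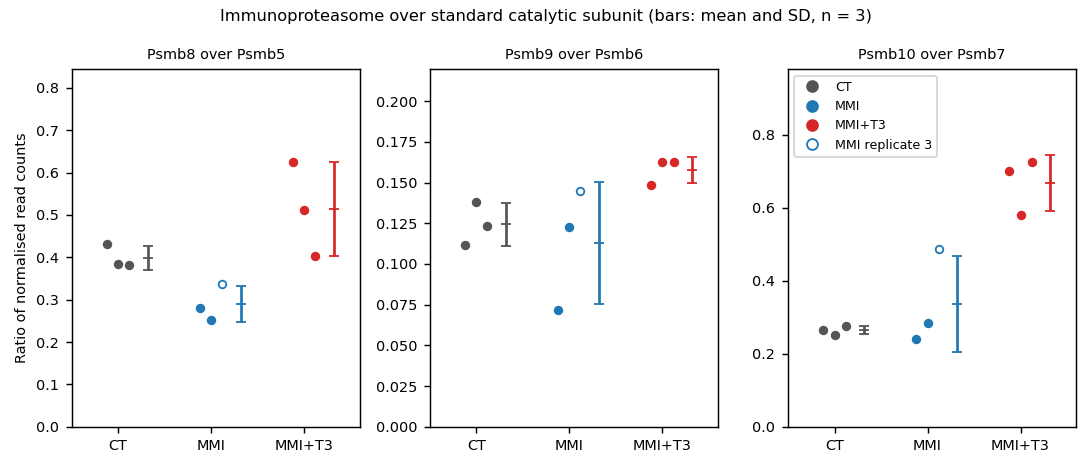
Ratio of the normalised read count of each immunoproteasome subunit to that of the standard subunit it replaces, 1 point per library, with bars for mean and SD (n = 3). Psmb10 over Psmb7 lies between 0.58 and 0.73 in MMI+T3 and at 0.49 or less in the other 6 libraries, and MMI replicate 3 (open circle) is the highest MMI library in each panel.

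Class II genes gave no call after T3. H2-Aa, the alpha chain of I-A, had 21.2, 16.1 and 27.6 CPM in MMI+T3 and 15.9, 22.5 and 39.6 CPM in MMI. H2-Ab1, its beta chain, had 22.1, 18.4 and 26.3 CPM compared to 17.6, 22.1 and 38.4 CPM, and H2-Eb1, the beta chain of I-E, had 24.7, 16.0 and 26.9 CPM compared to 16.3, 20.8 and 36.5 CPM. All 3 genes overlapped between the groups and were highest in MMI replicate 3. Their log2 fold changes were -0.28 for H2-Aa (95% interval -0.88 to 0.32), -0.25 for H2-Ab1 (-0.76 to 0.27) and -0.14 for H2-Eb1 (-0.71 to 0.42), so changes up to these bounds cannot be told from none. The sign was not stable. Over the alternative fits, values ran from -0.53 to 0.17 for H2-Aa, -0.46 to 0.15 for H2-Ab1 and -0.36 to 0.27 for H2-Eb1. Cd74 had 51.9, 44.8 and 58.1 CPM in MMI+T3 and 34.3, 42.8 and 65.8 CPM in MMI (0.10, edgeR adjusted p = 0.818). Ciita was low, with 2.30, 2.04 and 2.82 CPM compared to 1.36, 2.40 and 2.20 CPM (0.25, edgeR adjusted p = 0.666). Log2 fold changes of the genes for the peptide exchange factor DM were 0.22 for H2-DMa, 0.43 for H2-DMb1 and 0.43 for H2-DMb2, and that of H2-Ob, a subunit of the DM inhibitor DO, was 0.22, with adjusted p of 0.425 to 0.783. Leaving out any one library, MMI replicate 3 included, gave 0 class II calls, and without MMI replicate 3 the class I median was 0.63.

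MMI mice were compared to CT mice to describe these genes after methimazole and perchlorate without T3. Drug action, low thyroid hormone and the separate table cannot be told apart in this comparison. Over 13925 genes tested, 2.48% were called higher and 2.80% lower. In the class I pathway 0 of 26 tested genes were higher and 2 were lower, and 22 of the 26 had a negative log2 fold change, with a median of -0.18 beside 0.01 over all genes (-0.40 without MMI replicate 3). In the class II pathway 0 of 9 were called, 8 had a positive log2 fold change, and the median was 0.57. By unadjusted edgeR p under 0.05, there were 7 class I pathway and 5 class II pathway genes, beside 2673 of all 13925 genes tested. DESeq2 called 4 class I pathway genes lower and 1 class II pathway gene, H2-Eb1, higher.

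Every MMI library lay below every CT library in 7 class I pathway genes, beside 14.5% of all genes tested. H2-Q1 was 1 of them (log2 fold change -2.13, SE 0.49, edgeR adjusted p = 0.0293), with a log2 fold change of -3.09 without MMI replicate 3. H2-Q7 had 88.0, 81.7 and 98.0 CPM in CT, above all MMI libraries (log2 fold change -0.67, SE 0.15, edgeR adjusted p = 0.0276). The call for H2-Q1 was lost without MMI replicate 1 or 2 or CT replicate 1 or 2 (adjusted p of 0.0508 to 0.106) and that for H2-Q7 without MMI replicate 1 or any CT library (0.0666 to 0.119). H2-K1 had 1517, 1582 and 1610 CPM in CT, above every MMI library (-0.37, edgeR adjusted p = 0.12), and H2-Q10 had 2274, 2687 and 2741 CPM, also above every MMI library (-0.40, 0.162). H2-Q2 (-1.53, 0.114), H2-T23 (-0.47, 0.0709) and H2-D1 (-0.19, 0.427) were likewise lower in all MMI libraries without passing the test. Without MMI replicate 3, 6 class I pathway genes were called lower, the others being H2-K1, H2-T23, H2-Q6 and Tap1, with log2 fold changes of -0.42, -0.51, -0.70 and -0.64.

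Loading and processing genes were not called in MMI compared to CT. Log2 fold changes ranged from -0.42 for Tap1 to 0.24 for Nlrc5, whose MMI values of 21.6, 30.8 and 46.5 CPM lay on both sides of the CT values of 28.1, 26.7 and 29.8 CPM. Erap1 had -0.36, Psmb8 -0.17, Tap2 -0.17, B2m -0.15, Psmb9 -0.09, Tapbp -0.05 and Psmb10 0.13. Over the alternative fits Erap1 ranged from -0.58 to -0.16 and Nlrc5 from -0.10 to 0.47. Psmb9, Tapbp and Psmb10 also took both signs. Class II chains in CT were 16.8, 11.3 and 18.3 CPM for H2-Aa, 16.7, 12.2 and 17.7 CPM for H2-Ab1 and 15.0, 10.6 and 15.1 CPM for H2-Eb1. Among class II pathway genes, H2-Eb1 and Ciita alone had every MMI library above every CT library (log2 fold changes of 0.87 and 0.94, edgeR adjusted p = 0.0994 and 0.215), which is 2 of 9 tested class II pathway genes beside 11.9% of all genes tested. The other log2 fold changes were 0.76 for H2-Aa and H2-Ab1, 0.57 for Cd74, 0.39 for H2-DMb1, 0.11 for H2-Ob, 0.10 for H2-DMa and -0.12 for H2-DMb2. Without MMI replicate 3 the class II median was 0.26. Over the alternative fits, values ran from 0.32 to 1.01 for H2-Aa, 0.36 to 0.97 for H2-Ab1, 0.46 to 1.09 for H2-Eb1 and 0.26 to 0.76 for Cd74.

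MMI+T3 mice were also compared to CT mice, which gives the state after T3 against that of untreated animals. The 3 comparisons share libraries, so their values stand side by side here and are not independent. Over 13847 genes tested, 13.3% were called higher and 12.3% lower. Of the class I pathway, 7 of 26 tested genes were higher and 2 were lower, with a median log2 fold change of 0.09 beside 0.01 over all genes (0.14 without MMI+T3 replicate 2 or without CT replicate 3). Of the class II pathway, 3 of 9 were higher and 0 lower, all 9 were positive, and the median was 0.50. Unadjusted edgeR p under 0.05 was found for 9 class I and 5 class II pathway genes, beside 5230 of all 13847 genes tested. DESeq2 called 9 and 4.

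All MMI+T3 libraries lay above all CT libraries in 8 class I and 5 class II pathway genes, beside 22.2% of all genes tested. H2-Q1, H2-Q2 and H2-Bl were among them, with log2 fold changes of 2.63, 1.63 and 1.74 (edgeR adjusted p = 7.03e-06, 0.00713 and 0.0206). Without CT replicate 3 that of H2-Bl was 2.40. Psmb10 had 37.2, 38.8 and 42.5 CPM in CT and was 2.02-fold higher after T3 (log2 fold change 1.01, SE 0.13, edgeR adjusted p = 0.000246). Psmb8 (0.56, edgeR adjusted p = 0.00158), Tapbp (0.53, 0.00788) and H2-M3 (0.77, 0.0478) were also called. H2-T23 and B2m were lower than in CT, with log2 fold changes of -0.41 and -0.30 (edgeR adjusted p = 0.00793 and 0.0479). H2-K1, H2-D1, H2-Q7 and H2-Q10 had -0.15, 0.08, -0.15 and -0.13 and were not called. Calls for B2m, H2-M3 and H2-Bl were lost without single libraries: for B2m without any but CT replicate 1 (adjusted p of 0.0506 to 0.179), for H2-M3 without any but CT replicate 3 (0.0706 to 0.13), and for H2-Bl without MMI+T3 replicate 3 or CT replicate 1 or 2 (0.0619 to 0.0737).

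In the class II pathway, Cd74 had 36.4, 25.8 and 34.7 CPM in CT, below all MMI+T3 libraries (log2 fold change 0.66, SE 0.14, edgeR adjusted p = 0.00736). Ciita had 1.21, 0.71 and 1.20 CPM in CT and was 2.26-fold higher in MMI+T3 (1.18, SE 0.34, edgeR adjusted p = 0.0306), on 13 to 26 counts in CT and 42 to 58 in MMI+T3. H2-Eb1 was 1.65-fold higher (0.72, SE 0.20, edgeR adjusted p = 0.0261). H2-Ab1 (0.50, edgeR adjusted p = 0.0533), H2-Aa (0.47, 0.138) and H2-DMb1 (0.81, 0.0644) did not pass. Cd74 kept its call without any one library. Ciita lost it without MMI+T3 replicate 1 or 3 or CT replicate 2 or 3 (0.0605 to 0.103) and H2-Eb1 without MMI+T3 replicate 1 or 3 or CT replicate 2 (0.0748 to 0.0998), so that leaving out any of these last 3 left 1 class II gene called. H2-Ab1 was called without MMI+T3 replicate 2 (edgeR adjusted p = 0.0306).

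**Figure D4:**
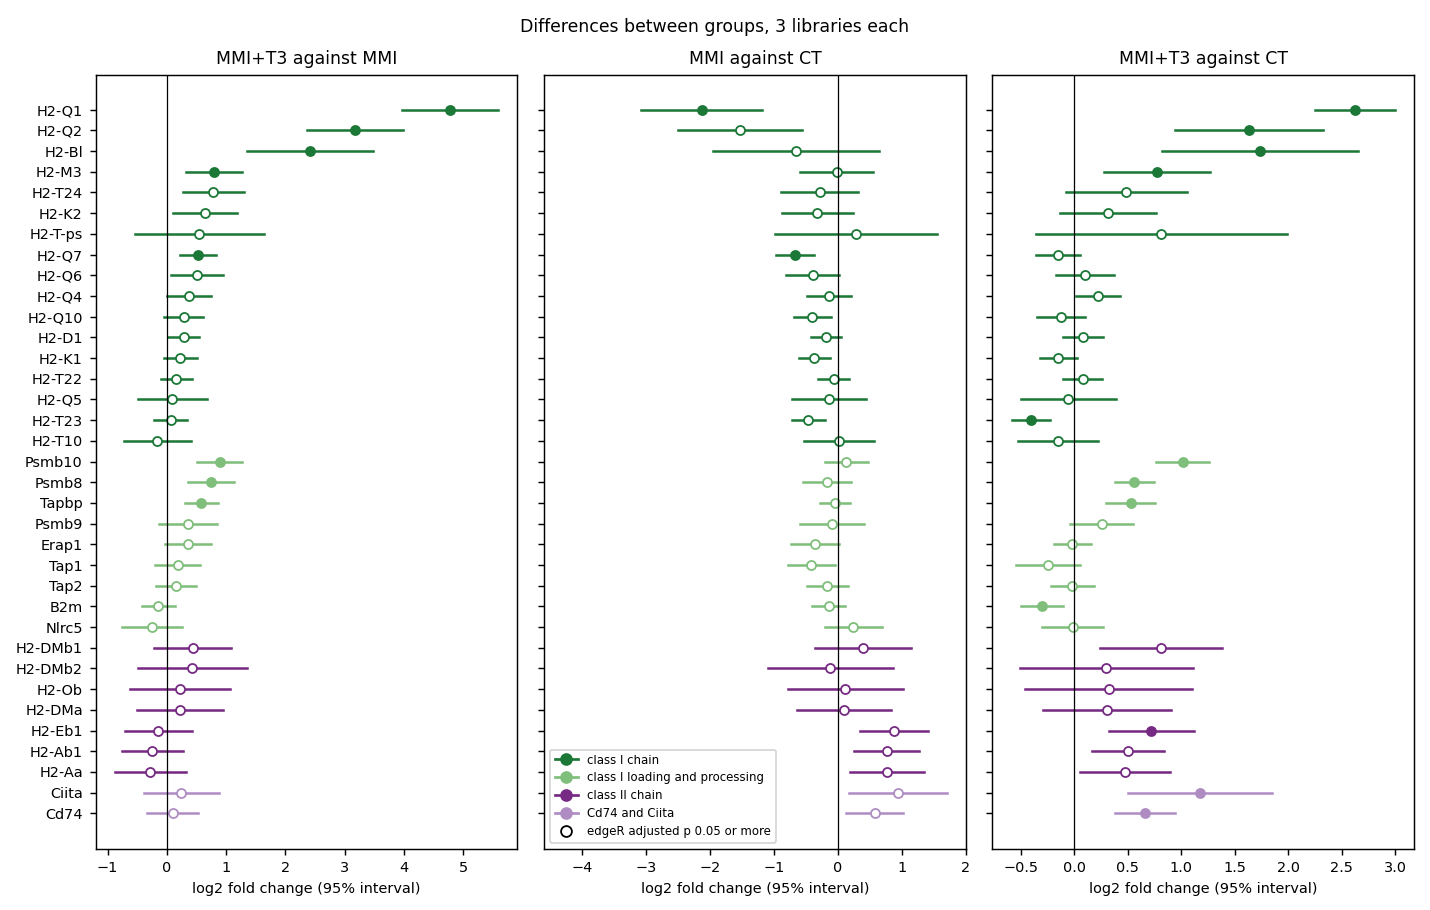
log2 fold change with its 95% interval for the 35 tested genes in the 3 comparisons, coloured by role, with filled points for an edgeR adjusted p under 0.05. Of 17 class I chain genes and pseudogenes, 16 lie right of 0 in MMI+T3 compared to MMI and 15 left of 0 in MMI compared to CT. Class II genes lie right of 0 in both comparisons with CT except H2-DMb2 in MMI.

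The classes were also compared by summed levels. The classical class I chains H2-K1 and H2-D1 together had 2205, 2272 and 2349 CPM in CT, 1788, 1737 and 1917 CPM in MMI and 2237, 2102 and 2196 CPM in MMI+T3. MMI lay below both other groups, which overlapped each other. The class II chains H2-Aa, H2-Ab1 and H2-Eb1 together had 48.4, 34.2 and 51.1 CPM in CT, 49.8, 65.5 and 114.5 CPM in MMI and 68.0, 50.5 and 80.8 CPM in MMI+T3, and the 3 groups overlapped. The ratio of the class I to the class II sum was 32.9, 41.6 and 27.2 in MMI+T3, 35.9, 26.5 and 16.7 in MMI, and 45.5, 66.5 and 46.0 in CT. CT libraries lay above all 6 others in this ratio, while MMI and MMI+T3 overlapped.

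Markers of other cell types moved between the same groups. All 12 macrophage and Kupffer cell markers were called higher in MMI+T3 compared to MMI and compared to CT, and their summed level was 348.5 to 679.4 CPM in MMI+T3, 120.9 to 158.5 CPM in MMI and 147.8 to 188.0 CPM in CT. Of 10 dendritic cell markers 6 had a mean under 0.5 CPM, and the sum was 10.3 to 14.0 CPM in CT, 14.8 to 23.6 CPM in MMI and 13.7 to 17.6 CPM in MMI+T3. Clec9a, a marker of cross-presenting dendritic cells, was called higher in MMI and in MMI+T3 than in CT, with log2 fold changes of 1.19 and 0.88 (edgeR adjusted p = 0.0285 and 0.0313). It was 1 of 4 dendritic markers tested in each of these comparisons. The others were not called, and 1 of the 4 had a negative log2 fold change in each. B cell markers summed to 5.60 to 6.33 CPM in CT, 3.91 to 7.82 CPM in MMI and 8.00 to 13.2 CPM in MMI+T3, with 2 of 8 under 0.5 CPM. T and NK cell markers summed to 1.81 to 7.45 CPM, with 8 of the 10 measured under 0.5 CPM. Endothelial markers summed to 220.6 to 288.3 CPM in CT, below the 295.5 to 362.2 CPM of MMI and the 320.1 to 340.3 CPM of MMI+T3, with 2 of 10 called higher in MMI and 5 in MMI+T3 compared to CT. Monocyte and neutrophil markers summed to 3.24 to 5.75 CPM in CT, 5.03 to 9.40 CPM in MMI and 9.82 to 13.6 CPM in MMI+T3. MMI replicate 3 had the highest dendritic, T and NK cell and class II sums of the 9 libraries. Within MMI+T3, replicate 2 had the highest macrophage sum (679.4 CPM) and the lowest class II sum (50.5 CPM). Within CT, replicate 2 was lowest in both sums (147.8 and 34.2 CPM). MMI replicate 1 was likewise lowest in both within MMI (120.9 and 49.8 CPM). In whole liver, fewer cells of a type and less RNA per cell cannot be told apart, and the part of these cells in the class I and class II values was not tested.

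**Figure D5:**
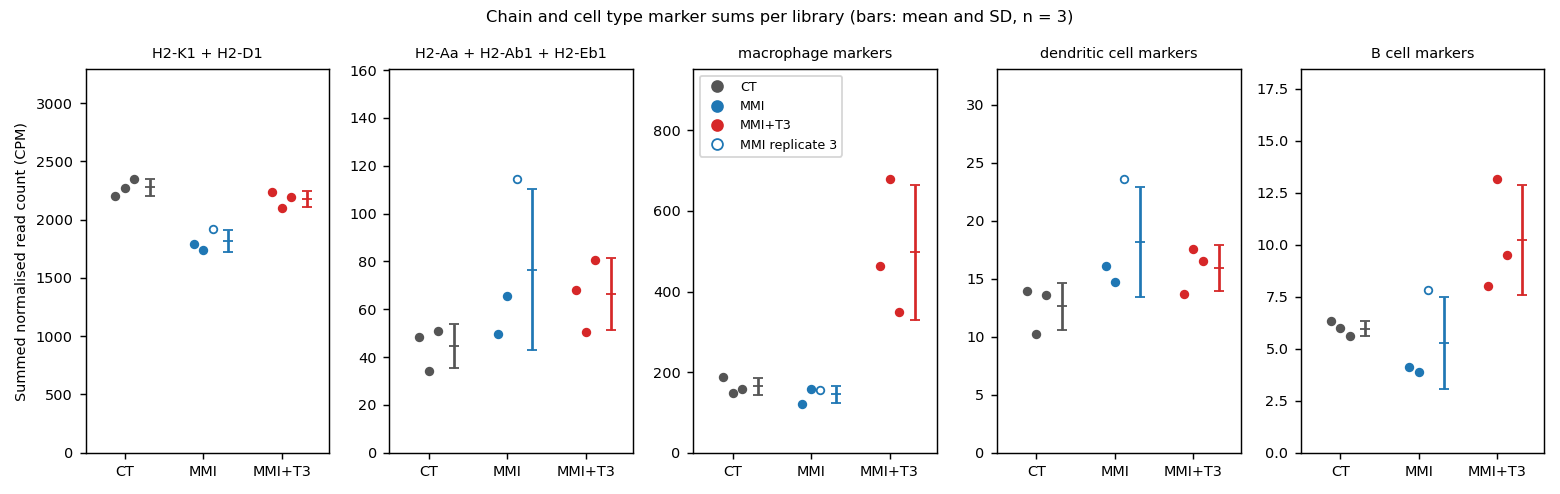
Summed normalised read count (CPM) of the classical class I chains, the class II chains and the markers of macrophages, dendritic cells and B cells, 1 point per library, with bars for mean and SD (n = 3) and axes that start at 0. The macrophage sum is 348.5 CPM or more in MMI+T3 and 188.0 CPM or less elsewhere, while the class II sum overlaps between MMI and MMI+T3.

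Companion genes of both pathways were taken from fixed lists. Their calls after T3 stand beside 9.83% of all genes tested called higher and 7.18% called lower. After T3 compared to MMI, 1 of 6 class I loading genes of the endoplasmic reticulum was called: Tapbpl, the tapasin-related peptide editor, was 1.91-fold higher (log2 fold change 0.93, SE 0.13, edgeR adjusted p = 0.000474). Of 7 endosomal genes for class II processing 2 were higher and 1 lower, with Ctss, the protease that removes the invariant chain, at 1.27 (edgeR adjusted p = 0.000505), Lgmn, an asparaginyl protease, at 0.67 (0.00483) and Ctsb at -0.56 (0.0218). In the list of interferon gamma signalling and transactivator factors 2 of 15 were higher and 1 lower. Irf1, an interferon-regulated transcription factor, had 0.55 (edgeR adjusted p = 0.0418). Nfyc and Nfyb, which encode subunits of the factor that binds CCAAT boxes, had 0.44 (edgeR adjusted p = 0.0372) and -0.86 (0.00187). Of 12 interferon-induced genes 3 were higher, the guanylate-binding protein genes Gbp3 (2.81) and Gbp2 (1.32) and the immunity-related GTPase gene Igtp (0.70), and 0 were lower. Costimulation had 1 of 3 tested genes higher, Cd86 with 1.47 (edgeR adjusted p = 0.0181), and class I-like genes outside the H2 complex had 1 of 8 lower, Raet1e with -1.58 (0.00491). Ctss and Cd86 are also expressed by macrophages, whose markers are given above.

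In MMI compared to CT these lists gave 1 call, the interferon-induced GTPase gene Iigp1, which was lower in MMI (edgeR adjusted p = 0.00952) by a log2 fold change of -0.70 (SE 0.13). In MMI+T3 compared to CT, the calls were 2 higher of 6 for class I loading, 2 higher and 1 lower of 7 for class II processing, 3 higher and 2 lower of 15 for interferon gamma and transactivator factors, 4 higher and 1 lower of 12 for interferon-induced genes, 1 higher of 3 for costimulation, 3 lower of 8 for class I-like genes and 4 lower of 17 for the standard proteasome. Tapbpl (0.90), Ctss (1.19), Gbp3 (2.74) and Nfyb (-0.78) were among them. Over all genes tested, 13.3% were called higher and 12.3% lower in MMI+T3 compared to CT. The shares in MMI compared to CT were 2.48% and 2.80%.

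Promoter sequence is shown for 4 class I genes that differ in their response, H2-Q2 with the larger change and H2-K1, H2-Q7 and H2-Q10 with smaller ones, and for 2 class II genes. The bases lie just before the RefSeq start on GRCm38.p6, and for H2-Q2 end before the GENCODE gene. Capitals mark matches on either strand to GAAANNGAAA (interferon-stimulated response element), TTCNNNGAA (gamma-activated site), CCAAT (Y box), TGACG (X2 box), GGGATTCCC (kappa B core of enhancer A) and AGGTCA (a hexamer bound by nuclear receptors).
H2-K1 (chr17:34000348-34000547, minus strand): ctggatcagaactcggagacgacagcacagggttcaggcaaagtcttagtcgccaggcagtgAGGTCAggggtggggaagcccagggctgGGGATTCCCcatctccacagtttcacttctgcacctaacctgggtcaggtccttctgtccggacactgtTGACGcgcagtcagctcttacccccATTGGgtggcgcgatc
H2-Q7 (chr17:35438955-35439154, plus strand): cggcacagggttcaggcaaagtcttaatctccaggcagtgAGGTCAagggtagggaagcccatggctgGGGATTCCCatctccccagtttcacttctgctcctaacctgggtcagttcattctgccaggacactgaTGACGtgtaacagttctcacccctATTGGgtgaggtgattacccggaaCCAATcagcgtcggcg
H2-Q10 (chr17:35469889-35470088, plus strand): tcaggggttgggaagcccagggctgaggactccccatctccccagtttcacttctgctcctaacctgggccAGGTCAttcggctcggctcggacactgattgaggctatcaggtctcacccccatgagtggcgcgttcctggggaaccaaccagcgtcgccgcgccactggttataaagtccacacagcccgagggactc
H2-Q2 (chr17:35342107-35342241, plus strand): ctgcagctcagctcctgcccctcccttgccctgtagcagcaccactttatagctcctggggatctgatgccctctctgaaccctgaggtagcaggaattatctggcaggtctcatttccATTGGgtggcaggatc
H2-Aa (chr17:34287824-34288023, minus strand): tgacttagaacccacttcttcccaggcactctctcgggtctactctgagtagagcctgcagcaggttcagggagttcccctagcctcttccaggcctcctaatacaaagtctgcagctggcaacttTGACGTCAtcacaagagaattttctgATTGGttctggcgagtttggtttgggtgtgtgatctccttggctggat
H2-Eb1 (chr17:34305667-34305866, plus strand): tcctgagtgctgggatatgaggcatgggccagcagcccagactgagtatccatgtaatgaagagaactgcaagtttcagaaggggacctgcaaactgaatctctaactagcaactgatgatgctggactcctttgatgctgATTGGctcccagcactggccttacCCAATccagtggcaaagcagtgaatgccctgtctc

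In the 200 bases before the start, searched in the 27 genes with a RefSeq promoter and in 27025 promoters of all genes, the Y box matched in 21 of the 27 and in 30.02% of all, and the X2 box in 10 and 15.79%. GGGATTCCC matched in 4, H2-K1, H2-D1, H2-Q6 and H2-Q7, and in 0.22% of all promoters. AGGTCA matched in 8 (11.23% of all), GAAANNGAAA in 3, namely B2m, H2-T22 and H2-T23 (2.33%), and TTCNNNGAA in 1, Psmb8 (5.62%). Of these motifs, TGACG overlaps its own reverse complement in H2-Aa. The printed H2-Q2 sequence holds a Y box and none of the other letters searched. These matches describe the letters alone.

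The remaining genes had few counts. H2-Oa, a subunit of DO, had 0.05 to 0.22 CPM in CT, 0.05 to 0.09 CPM in MMI and 0.10 to 1.12 CPM in MMI+T3, where it had 2, 4 and 23 counts. H2-DMb2 and H2-Ob had 10 to 29 counts per library. The pseudogenes H2-M6-ps and H2-T-ps had 0 to 8 and 4 to 23 counts per library, and H2-Ke6 had 3 to 9. H2-M2 had 0, 2 and 2 counts in MMI and 9, 0 and 14 in MMI+T3. H2-DMb2, H2-Ob and H2-T-ps were tested and not called in any comparison, and the others did not pass the filter on low counts.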

How the data were processed

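RNA-seq was done on livers of CT, MMI and MMI+T3 mice, 3 libraries each, grouped by the sample labels. Values are raw counts of reads for each gene as the authors deposited them, with CT in one table and MMI with MMI+T3 in another. The study's methods name stranded poly(A) libraries, trimming, STAR, HTSeq and DESeq2, and the submitters' processing notes HISAT2 2.1.0, HTSeq 0.6.1p1 and GRCm38. Which aligner made these counts, the strand setting and the handling of reads with several matches could not be settled, so close H2 copies and overlapping genes such as H2-Ke6 (61.6% of windows shared with another gene) are uncertain. Both tables had been filtered (lowest summed count 10), and 21 symbols that had become dates were restored from gene IDs. As no source ties libraries to separate animals, p-values cover only the spread among these libraries, which may be technical. No replicate pair differed by as little as sampling noise (chi-square per degree of freedom 14 to 59.6).

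Fits used the 6 libraries of the comparison in edgeR 4.0.16 under R 4.3.3, with TMM scaling, low-count filter (minimum 10), quasi-likelihood test, Benjamini-Hochberg over all genes tested, threshold 0.05. CPM were scaled over all 9 libraries. The procedure was tested on simulated counts. Alternatives were other scalings, filters, DESeq2 1.42.0, limma-voom (limma 3.58.1), a fit of all libraries, a replicate block and leaving out each library. Coordinates and transcripts are from GENCODE M21, and promoters from RefSeq (27 genes matched).

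Members and lists were chosen with earlier results of these data known. Named were the 11 genes given by name, the main class I and II chains, other H2- genes with a mean of at least 1 CPM, up to 3 genes per companion list and comparison, and Dio1. No set test was run.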

Additional observations from a re-analysis of the deposited data

How the results depend on the processing

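DESeq2's Wald test gave 1154 calls over all genes in MMI compared to CT (736 with edgeR), with 4 class I pathway genes (2 with edgeR) and 1 class II pathway gene (0 with edgeR). Leaving out 1 library at a time gave 4 to 10 class I pathway calls in MMI+T3 compared to MMI (8 with all libraries), where the lowest count of 4 came without MMI+T3 replicate 1 or 3 or MMI replicate 1, and 5 without MMI replicate 2. In MMI compared to CT it gave 341 to 783 calls over all genes, 341 without CT replicate 2 and 382 without CT replicate 3, with 0 to 6 class I pathway calls (6 without MMI replicate 3) and 0 to 1 class II pathway calls (1 without MMI replicate 1). In MMI+T3 compared to CT it gave 1 to 4 class II pathway calls. Whether same-numbered libraries pair was not settled. Correlations of their deviations were 0.06, 0.00 and 0.17 in MMI+T3 and MMI (-0.13 to 0.08 for differently numbered libraries). In MMI and CT they were -0.07, -0.03 and 0.16 (-0.15 to 0.16). In MMI+T3 and CT they were 0.12, 0.15 and -0.03 (-0.22 to 0.10). With the replicate block, the class II pathway calls were 2 in MMI compared to CT and 5 in MMI+T3 compared to CT, and the class I pathway calls 9, 2 and 8. Calls over all genes were then 2530 in MMI+T3 compared to MMI (2400 without the block). They were 984 in MMI compared to CT (736) and 3759 in MMI+T3 compared to CT (3548). Other scalings and filters left all of these counts within 1.5 times their main value, and no gene named changed direction with a call under any alternative. Genes under about 1 CPM were limited by depth.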
